A study of Homo sapiens with 24 samples.

Results

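The comparison described here is between 2 cell lines of inflammatory breast cancer, SUM149PT and SUM190PT, in the absence of drug. Its members are the 6 arrays whose titles mark them as the control cultures of either line, 3 of SUM149PT and 3 of SUM190PT, out of 24 arrays in the series. The series measured mRNA on the Affymetrix Human Gene 1.0 ST array in both lines after vehicle, estradiol, the histone deacetylase inhibitor CG-1521 or both agents together, with 3 independent experiments per group. The 6 control cultures received the solvents ethanol and DMSO for 48 h. SUM149PT cells stood in Ham's F-12 medium with 5% fetal bovine serum, 5 µg/mL insulin and 1 µg/mL hydrocortisone. SUM190PT cells received the same amounts of insulin and hydrocortisone in the same base medium, to which 10 nM triiodothyronine, 50 nM sodium selenite, 5 µg/mL transferrin, 5 mM ethanolamine and 1 g/L albumin had been added. They were plated with 2% serum and moved to serum-free medium before the vehicle was added. Both lines are labelled as negative for the estrogen receptor. Line and medium therefore differ together in every comparison below, and their shares in a difference cannot be told apart. Each line is a single established culture, so the arrays show how these 2 lines differed and not how classes of tumour differ.

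Breast epithelium has an inner luminal layer, which secretes and is specified by factors such as GATA3 and FOXA1, and an outer basal layer, which holds on to the basement membrane through laminins and integrins. The ERBB receptor tyrosine kinases and their EGF-like ligands drive growth in both, and extra copies of the ERBB2 gene define one class of breast cancer. Inflammatory breast cancer is a clinical form in which tumour cells fill the lymphatic vessels of the skin, and it occurs with either kind of receptor profile. SUM190PT is known as a line with ERBB2 amplification, and SUM149PT as an ERBB2-negative line with a BRCA1 mutation.

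All values are log2 expression, a difference is SUM149PT minus SUM190PT, and a difference of 1 is therefore 2-fold. A gene is called higher or lower where limma's adjusted p, over 18417 genes, was under 0.05. Of these genes 4517 (24.5%) were higher and 4075 (22.1%) lower in SUM149PT, together 46.7%, and 1672 (9.08%) and 1346 (7.31%) of all genes were called at 2-fold or more. The shares of 24.5% and 22.1% are the background for the counts of all gene lists below. Arrays of the same line correlated at 0.995 to 0.996 over all genes in SUM149PT and at 0.981 to 0.991 in SUM190PT, against 0.880 to 0.903 between the lines. The lowest values within SUM190PT, 0.981 and 0.984, were those of array 3, and the median SD over genes was 0.103 in SUM149PT and 0.169 in SUM190PT. The median difference over all genes was -0.02. The arrays of the lines did not overlap for 9626 genes (52.3%), with SUM149PT higher for 27.2% and lower for 25.1%. The number of arrays, 3 per line, limits the precision, and the median standard error of a difference was 0.12.

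The 15 genes with the largest excess in SUM149PT included a histone, a complement component, matrix and surface proteins, enzymes and neural genes. LAMB1, a laminin chain of basement membranes, read 9.82, 9.91 and 9.98 in SUM149PT and 4.52, 4.42 and 4.71 in SUM190PT (difference 5.35, SE 0.09, adjusted p = 1.29e-21). The arrays of each line lay close together and far from those of the other line. The choice of the 15 genes required large differences and lines that did not overlap. A smaller number of cells of one kind and less RNA per cell cannot be told apart in such bulk samples. F3, the tissue factor that starts coagulation, read 11.32, 11.03 and 11.42 in SUM149PT against 5.91, 5.91 and 6.01 in SUM190PT. PLAT, the tissue plasminogen activator, read 10.08, 10.30 and 10.10 in SUM149PT against 4.91, 5.18 and 4.64 in SUM190PT, a difference of 5.25 (SE 0.19). ANPEP, an aminopeptidase of the cell surface, differed by 5.54 and GSTP1, a glutathione transferase, by 5.65. GSTP1 sat at 11.39 to 11.45 in SUM149PT and at 5.72 to 5.85 in SUM190PT. CCNA1, the cyclin A of the germline, was also in this set (9.37, 9.50 and 9.28 in SUM149PT against 3.94, 4.14 and 4.21 in SUM190PT), as were the neural genes SYT14 (5.38) and CNTN1 (5.20), a synaptotagmin and a contactin. C3, the central component of complement, read 10.60, 10.48 and 10.46 in SUM149PT against 4.32, 4.47 and 4.09 in SUM190PT.

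**Figure D1:**
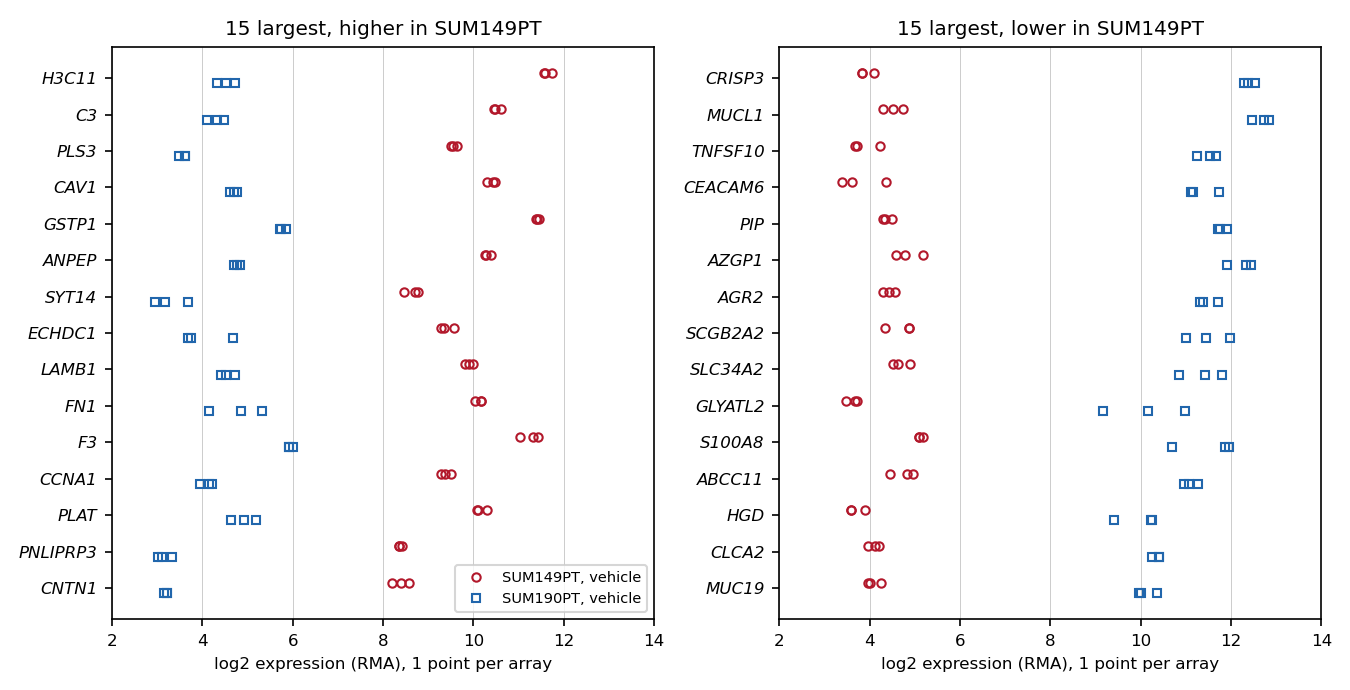
Log2 expression in each vehicle array for the 15 genes with the largest positive and the 15 with the largest negative difference, with SUM149PT as circles and SUM190PT as squares, 1 point per array. The choice of genes required groups that do not overlap; the differences run between 5.20 and 7.10 on the left and between -8.49 and -6.03 on the right.

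The 15 genes with the largest deficit in SUM149PT included several secreted products of apocrine and luminal epithelium. PIP, the prolactin-induced protein of apocrine glands, read 4.34, 4.50 and 4.30 in SUM149PT and 11.92, 11.71 and 11.77 in SUM190PT (difference -7.42, SE 0.35, adjusted p = 3.29e-14). SCGB2A2, which codes for mammaglobin, read 4.87, 4.35 and 4.88 in SUM149PT against 11.44, 11.01 and 11.99 in SUM190PT. AZGP1, a zinc-binding glycoprotein of secretions, read 5.19, 4.79 and 4.59 in SUM149PT against 12.44, 11.92 and 12.33 in SUM190PT. In each of the 3 genes the lines were separated by more than 6 log2 units. That the arrays did not overlap was required by the choice of the 15 genes. Further members of the set were the mucins MUCL1 (-8.16) and MUC19 (-6.03), the phosphate carrier SLC34A2 (-6.68), the lipophilic-anion exporter ABCC11 of apocrine glands (-6.35), the calcium-binding alarmin S100A8 (-6.38) and HGD, an enzyme of tyrosine breakdown (-6.27). GLYATL2 was the most variable of them, at 3.69, 3.49 and 3.72 in SUM149PT against 10.99, 10.17 and 9.16 in SUM190PT.

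The apocrine and secretory list held 25 measured genes, of which 15 were lower and 2 higher in SUM149PT, with a median difference of -1.96. Besides the genes above, it included the secretoglobins SCGB1D2 (-5.60) and SCGB2A1 (-5.10) and the fatty acid hydroxylase CYP4Z1 (-4.99), all lower in SUM149PT. LCN2, the siderophore-binding lipocalin, went the other way and read 9.08, 8.73 and 9.01 in SUM149PT against 7.04, 7.69 and 6.81 in SUM190PT (1.76, SE 0.23). The milk protein genes CSN2 (-0.14), CSN3 (0.09) and LALBA (-0.03) did not pass the test.

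Neighbouring genes on several chromosomes differed together. The lowest window of 11 consecutive measured genes ran on chromosome 17 from STARD3 to ORMDL3, with a median difference of -3.92 where the 1st percentile of all 18135 windows was -0.76. ERBB2, the receptor tyrosine kinase HER2, read 7.22, 7.25 and 7.06 in SUM149PT and 12.69, 12.41 and 12.67 in SUM190PT (difference -5.41, SE 0.13, adjusted p = 2.06e-19). PGAP3, a remodeller of lipid anchors, read 5.87, 5.65 and 5.75 in SUM149PT against 11.53, 11.44 and 12.04 in SUM190PT. GSDMB, a pore-forming gasdermin, read 3.93, 4.31 and 4.0 in SUM149PT against 9.67, 9.43 and 10.07 in SUM190PT. The lines did not overlap in any of these genes, and the differences of PGAP3 (-5.91) and GSDMB (-5.64) were at least as large as that of ERBB2. The run of lower genes went on through the adaptor GRB7 (-4.47), MIEN1 (-3.92), the sphingolipid regulator ORMDL3 (-4.59), the proteasome subunit PSMD3 (-2.67), the Mediator subunit MED24 (-3.65), the thyroid hormone receptor gene THRA (-3.05) and the clock repressor NR1D1 (-1.36).

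Close to that run, on both sides, the differences were much smaller than those of its called members. Before it, CDK12, a kinase of transcription, differed by 0.58 and STARD3, a cholesterol carrier, by -0.31, and after it MSL1 differed by 0.47. TOP2A, the topoisomerase further along the same arm, read 9.80, 9.85 and 9.92 in SUM149PT against 8.76, 8.46 and 7.65 in SUM190PT and so went the other way (1.57, SE 0.31). Further out as well, CACNB1 was higher (1.16, SE 0.13), and CDC6 (1.31, SE 0.55) did not pass the test. TCAP (0.04) and PNMT (0.02), between STARD3 and PGAP3, and IKZF3 (-0.10) and ZPBP2 (-0.10), inside the run, did not pass the test, and all 4 read under 6 in both lines. CSF3 (0.21), also inside the run, read 7.15 in SUM149PT and 6.94 in SUM190PT on average and did not pass either. From CACNB1 to TOP2A 31 genes were measured, of which 12 were lower and 7 higher. Of the 23 that read above 6 in at least 1 line, the same number, 12, were lower.

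Another run lay on chromosome 22 around CRKL, an adaptor of tyrosine kinase signalling. PI4KA, which makes phosphatidylinositol 4-phosphate, read 7.13, 7.49 and 7.48 in SUM149PT and 12.14, 11.93 and 11.85 in SUM190PT (-4.61, SE 0.10, adjusted p = 6.4e-20). KLHL22, a ubiquitin ligase adaptor, read 5.4, 5.49 and 5.35 in SUM149PT against 9.90, 9.84 and 9.86 in SUM190PT. SNAP29, a membrane fusion protein, read 7.61, 7.62 and 7.60 in SUM149PT against 11.62, 11.35 and 11.23 in SUM190PT. The 6 arrays of each gene fell into 2 tight groups. LZTR1, a brake on RAS proteins (-4.04), the Mediator subunit MED15 (-3.72), THAP7 (-2.45) and CRKL itself (-2.37) were lower as well. Of 36 genes measured from TXNRD2 to PPIL2, 20 were lower and 2 higher. Beyond THAP7 the differences lay between -0.42 and 0.94 up to PPIL2. On the other side ARVCF, a catenin, still differed by -3.59 and TXNRD2, a mitochondrial thioredoxin reductase, by -1.35.

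Another set of neighbours surrounds CCND1, the gene of cyclin D1, on chromosome 11. CCND1 read 9.02, 9.09 and 9.15 in SUM149PT and 10.99, 11.08 and 10.84 in SUM190PT (-1.89, SE 0.11, adjusted p = 2.01e-12). MYEOV read 5.95, 5.60 and 5.87 in SUM149PT against 9.45, 9.31 and 9.61 in SUM190PT. Both genes were lower in all 3 SUM149PT arrays than in any SUM190PT array. The cortical actin regulator CTTN (-1.17), the death-domain adaptor FADD (-0.99), the scaffold SHANK2 (-2.69) and the sterol reductase DHCR7 (-1.44) were lower too, and 10 of 16 measured neighbours were lower in all. ANO1, a chloride channel between them, was the 1 gene called higher (0.57, SE 0.13). Gene copy number was not measured on these arrays.

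**Figure D2:**
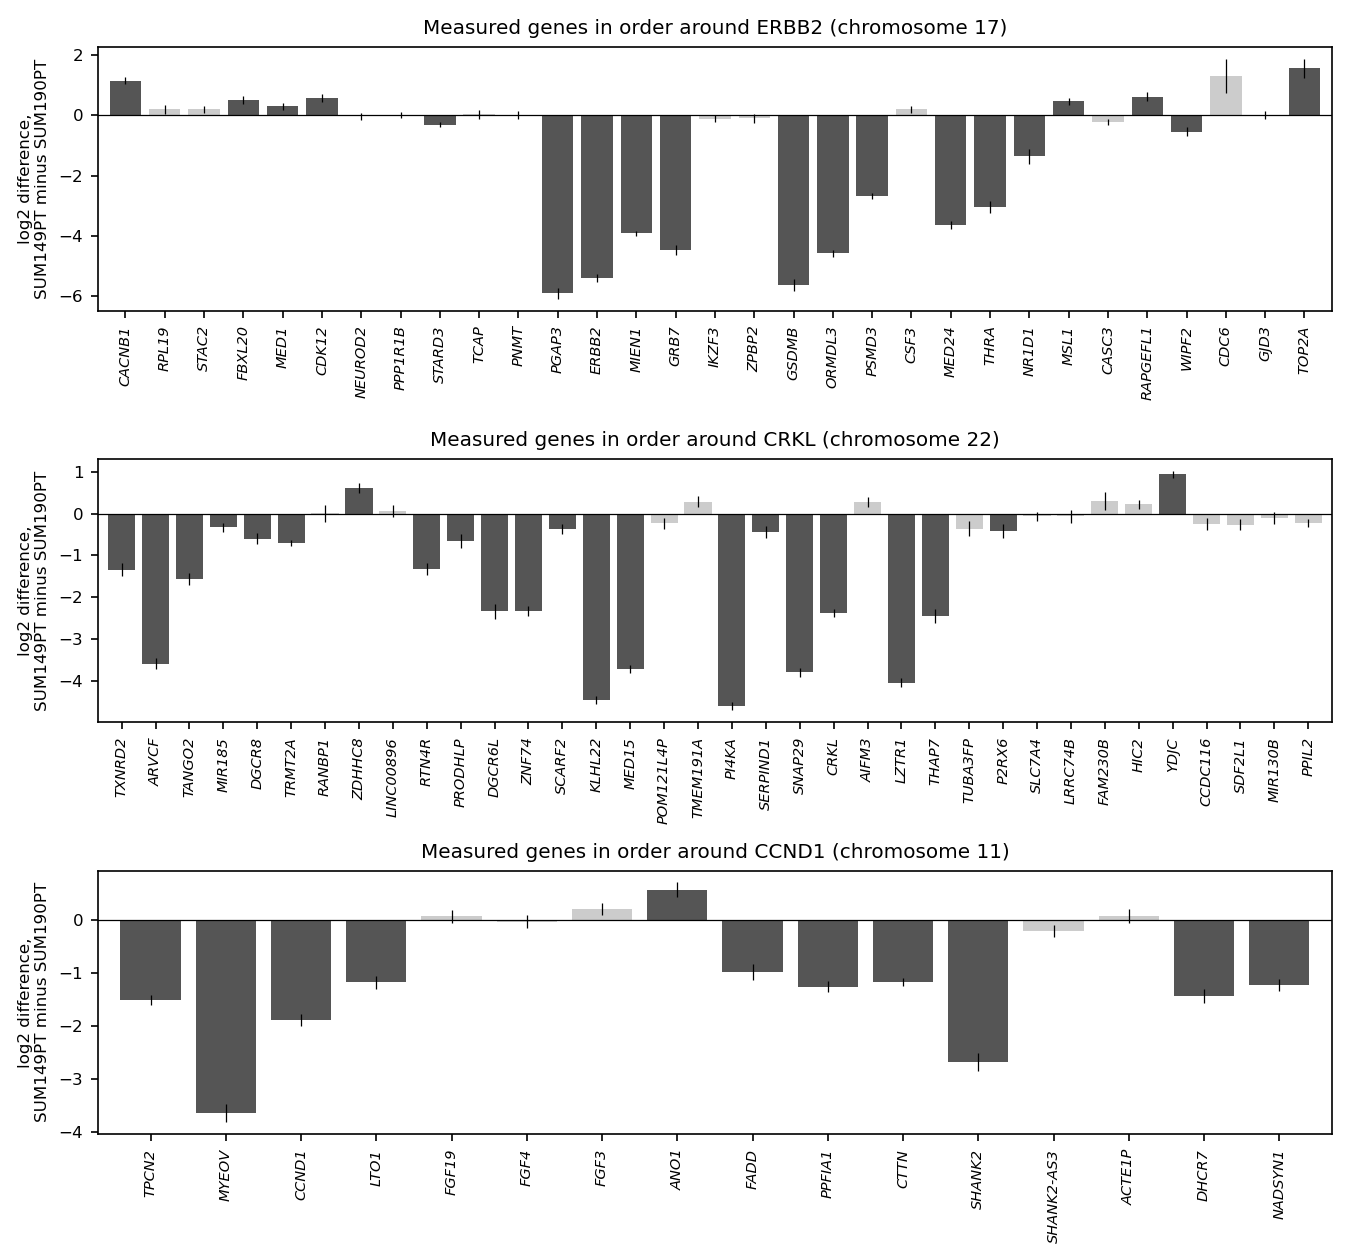
Log2 difference, SUM149PT minus SUM190PT, of measured genes in the order of the RefSeq gene table around ERBB2, CRKL and CCND1, with error bars of 1 standard error. Dark bars passed the test and light bars did not; runs of adjacent genes lie well below 0, down to -5.91 at PGAP3, and are broken by genes close to 0.

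Another run on chromosome 17 ended at RPS6KB1, the ribosomal S6 kinase (-1.36, SE 0.13), and held VMP1, an autophagy protein (-1.29), the clathrin heavy chain CLTC (-1.40), the tubulin TUBD1 (-1.76) and the probe set named for MIR21. That probe set read 6.27, 7.49 and 6.61 in SUM149PT and 9.82, 10.32 and 11.04 in SUM190PT (-3.60, SE 0.32, adjusted p = 2.35e-09). All SUM149PT arrays were lower than all SUM190PT arrays, and the array does not tell the mature microRNA from its precursor or from transcripts that run through it. The mature product of this locus, a microRNA known for high levels in many carcinomas, is shown because its hairpin gene had the largest difference of the run (RefSeq, GRCh38.p14, chr17:59841273-59841294, plus strand), with the seed, bases 2 to 8, in capitals.
hsa-miR-21-5p: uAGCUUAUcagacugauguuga
The run was not uniform, since PRR11, a gene of the cell cycle, was higher (1.99, SE 0.33) and SMG8 (0.03) and YPEL2 (-0.04) did not pass the test. A further run on chromosome 15, from RAB27A to CGNL1, had a median of -1.30, with TEX9 at 3.91, 3.76 and 3.90 in SUM149PT against 8.35, 7.62 and 8.25 in SUM190PT and RAB27A, a GTPase of secretory vesicles, at -2.26.

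Other windows read higher in SUM149PT. The highest median, 1.76, lay in the histone gene cluster of chromosome 6 and included H1-5, a linker histone (11.37, 11.46 and 11.36 in SUM149PT against 9.96, 9.60 and 8.16 in SUM190PT), and H3C11, the gene with the largest positive difference of all (7.10, SE 0.12). H3C11 read 11.58, 11.74 and 11.56 in SUM149PT against 4.52, 4.32 and 4.73 in SUM190PT. H3C10, another histone H3 gene of this window, read 7.74, 7.76 and 7.94 in SUM149PT and 7.93, 7.68 and 7.20 in SUM190PT and did not pass. Histone genes are near-identical copies, so signal can be shared among their probes. On chromosome 4 a window with a median of 1.71 held VEGFC, a growth factor of lymphatic vessels, at 9.44, 9.48 and 9.54 in SUM149PT against 6.71, 6.50 and 6.35 in SUM190PT. On chromosome 11 a window with a median of 1.7 held RCN1, a calcium-binding protein of the endoplasmic reticulum (4.18), the mRNA 3′-end processing factor CSTF3 (1.96) and the translation factor EIF3M (1.97). A window on chromosome 2, with a median of 1.55, held ITGA6, the iron reductase CYBRD1 (2.99) and the kinases PDK1 (1.99) and MAP3K20 (2.94). The 99th percentile of all windows was 0.94. Over windows of 21 genes around the same positions every median was nearer to 0, at -0.31 for the ERBB2 run and 0.37 for the histone cluster.

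Among the ERBB receptors, EGFR was higher and the other receptors lower in SUM149PT. EGFR read 8.39, 8.52 and 8.55 in SUM149PT and 5.43, 5.72 and 5.79 in SUM190PT (2.84, SE 0.12, adjusted p = 1.15e-14). ERBB3, a receptor that signals through its partners, read 6.81, 6.81 and 6.85 in SUM149PT against 8.99, 8.91 and 9.57 in SUM190PT (-2.33). ERBB4 read 4.41, 4.60 and 4.65 in SUM149PT against 7.67, 7.56 and 8.42 in SUM190PT (-3.33). The lines did not overlap for any receptor. Ligands divided as well. EREG, epiregulin, read 9.76, 9.51 and 9.94 in SUM149PT against 5.75, 5.94 and 5.58 in SUM190PT, and TGFA read 7.87, 8.01 and 8.16 in SUM149PT against 5.57, 5.26 and 5.00 in SUM190PT. EGF itself was lower, at 4.39, 4.26 and 4.23 in SUM149PT against 6.86, 6.60 and 6.85 in SUM190PT. The neuregulin NRG4 (-1.34) and epigen EPGN (-0.77) were lower too, NRG1 was slightly higher (0.35), and HBEGF (-0.62), BTC (0.07), NRG2 (-0.05) and NRG3 (0.09) did not pass. Of the 14 measured members 4 were higher and 6 lower.

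Of 45 other receptor tyrosine kinases 7 were higher and 9 lower in SUM149PT, below the 24.5% and 22.1% of all genes, and their median difference was -0.09. AXL, a receptor of the mesenchymal state, read 7.96, 8.48 and 8.39 in SUM149PT against 4.98, 5.64 and 5.48 in SUM190PT (2.91, SE 0.20). The Wnt co-receptors ROR1 (2.22) and ROR2 (1.90), the hepatocyte growth factor receptor MET (1.76) and FGFR2 (1.14) were higher, and INSR, the insulin receptor (-1.38, SE 0.16), FGFR1 (-1.17) and EPHB4 (-0.96) were lower. IGF1R (-0.25), KIT (0.16) and PDGFRB (0.04) did not pass.

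Luminal markers were lower in SUM149PT or did not differ past the threshold. Of 21 measured, 14 were lower and 0 were higher by limma, with a median of -1.24, and no member had a positive difference above 0.06. SPDEF, a transcription factor of secretory epithelium, read 5.83, 5.74 and 5.97 in SUM149PT and 9.50, 9.43 and 9.87 in SUM190PT (-3.76, SE 0.19, adjusted p = 1.04e-13). TFAP2B read 4.24, 5.02 and 4.80 in SUM149PT against 8.96, 8.78 and 8.96 in SUM190PT. The pioneer factor FOXA1 (-2.88), the secretory-stress factor XBP1 (-2.93) and GATA3 (-1.79) were lower, as was the mucin MUC1 at 6.53, 6.38 and 6.39 in SUM149PT against 9.84, 9.63 and 9.97 in SUM190PT. The lines were apart in each of these genes. ESR1, the gene of estrogen receptor alpha, read 4.91, 4.61 and 4.75 in SUM149PT against 4.54, 4.84 and 4.72 in SUM190PT, overlapping ranges with an adjusted p of 0.741 by limma. The progesterone receptor gene PGR overlapped too, at 3.62 to 3.74 in SUM149PT against 3.51 to 3.88 in SUM190PT, and the estrogen targets TFF1 (-0.17) and NAT1 (-0.21) did not pass.

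Basal markers were mixed in sign. Of 26 listed, 16 were measured, of which 8 were higher and 3 lower, with a median of 0.49. The other listed markers were not analysed, so the counts cover only part of the list. KRT5, the basal keratin, read 10.45, 10.52 and 10.31 in SUM149PT and 5.07, 5.64 and 5.87 in SUM190PT (4.90, SE 0.18, adjusted p = 5.58e-16). LAMB3, a chain of the laminin that anchors basal cells, read 10.75, 10.88 and 10.98 in SUM149PT against 5.54, 5.98 and 6.23 in SUM190PT, and its integrin receptor subunit ITGA6 read 10.07, 10.21 and 10.26 in SUM149PT against 5.82, 5.61 and 6.26 in SUM190PT. These genes separated the lines by more than 3 log2 units. The P-cadherin gene CDH3 was higher (1.72), while the other basal keratin KRT14 differed by 0.65. SOX10 (0.00) and EN1 (0.08), transcription factors often found in basal tumours, did not pass. VTCN1, an inhibitory ligand of T cells, went against the list at 4.0, 3.28 and 4.09 in SUM149PT against 9.12, 8.68 and 9.11 in SUM190PT (-5.18, SE 0.28), and so did the plakin DST (-1.24).

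Of 30 measured keratins 4 were higher and 5 lower in vehicle arrays. In the estradiol arrays of the same lines 13 were higher and 4 lower, where 31% and 23.6% of all genes were. The simple-epithelial keratin KRT19 read 10.84, 11.01 and 10.62 in SUM149PT against 12.14, 12.11 and 12.18 in SUM190PT (-1.32, SE 0.15), and KRT23 (-2.03), KRT15 (-1.13) and KRT8 (-0.84) were lower as well. KRT18 (-0.22) and KRT7 (-0.07) did not pass. Apart from KRT5, the higher keratins KRT16 (0.75), KRT9 (0.66) and KRT14 (0.65) differed by less than 1.

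The lists of mesenchymal and epithelial identity genes moved in opposite directions. Of 31 mesenchymal and matrix-contact genes 25 were higher and 2 lower in SUM149PT (median 1.77). FN1, fibronectin, read 10.04, 10.16 and 10.17 in SUM149PT and 5.33, 4.86 and 4.15 in SUM190PT. VIM, the intermediate filament vimentin, read 8.60, 8.62 and 8.27 in SUM149PT against 5.20, 4.90 and 5.18 in SUM190PT (3.40, SE 0.13, adjusted p = 7.1e-16). EFEMP1, a fibulin of the matrix, read 10.15, 9.98 and 10.27 in SUM149PT against 5.45, 5.35 and 5.29 in SUM190PT. In all 3 genes the lines were clearly apart. The collagen cross-linkers LOXL2 (4.12) and LOX (3.81), N-cadherin CDH2 (3.40), the actin binder CALD1 (3.54), moesin MSN (3.17) and the hyaluronan receptor CD44 (2.30) were higher too. The tropomyosin TPM1 (-1.90) and fibrillin FBN1 (-0.99) were lower, and the contractile genes TAGLN (0.10) and CNN1 (-0.02) and the matrix gene SPARC (-0.25) did not pass.

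Of 12 transcription factors of the epithelial-mesenchymal transition 6 were higher and 0 lower by limma. SNAI2, a zinc-finger repressor of epithelial genes, read 9.02, 9.31 and 9.09 in SUM149PT and 4.27, 4.82 and 4.95 in SUM190PT (4.46, SE 0.15, adjusted p = 6.93e-17). TCF4, a helix-loop-helix factor, read 6.06, 6.23 and 6.10 in SUM149PT against 3.95, 3.40 and 3.86 in SUM190PT. SNAI1 read 6.42, 6.57 and 5.59 in SUM149PT against 5.08, 5.15 and 4.90 in SUM190PT, a smaller difference (1.15, SE 0.21) with array 3 of SUM149PT closest to the other line. TWIST1 (1.10), ZEB2 (0.42) and TWIST2 (0.38) were called, and ZEB1 (-0.06) was not.

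Epithelial identity genes were lower for 16 of 23 members and higher for 2 (median -0.52). EHF, an ETS factor of epithelia, read 6.50, 6.39 and 6.30 in SUM149PT against 9.65, 9.26 and 9.79 in SUM190PT (-3.17, SE 0.13, adjusted p = 2.06e-15). GRHL1, a grainyhead factor, read 5.58, 5.13 and 5.44 in SUM149PT against 8.33, 8.49 and 8.03 in SUM190PT, and the surface protease PRSS8 read 7.20, 7.57 and 7.19 in SUM149PT against 9.11, 9.30 and 10.24 in SUM190PT. E-cadherin CDH1 remained at a high reading in both lines, at 10.13, 10.18 and 10.24 in SUM149PT against 10.56, 10.42 and 10.96 in SUM190PT, a difference of -0.46 (SE 0.14, adjusted p = 0.011). EPCAM, an epithelial adhesion protein, was higher, at 11.68, 11.08 and 11.41 in SUM149PT against 10.93, 10.16 and 10.66 in SUM190PT (0.80, SE 0.16). In SUM149PT the genes of fibronectin, vimentin, E-cadherin and EPCAM all read above the median of all genes, 6.11, in the same arrays.

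The SNAI proteins are known to bind the E-box CAGGTG. On the other strand this motif is written CACCTG. Among the 250 bases before the start of transcription, 17.5% of 27305 RefSeq promoters held these letters on either strand. A promoter was given for 12 of the 23 epithelial identity genes, of which 6 held them, and for 9 of the lower ones, of which 5 did. The letters are a description of the sequence and no binding was measured. The promoters of ELF3, an ETS factor (-2.05), RAB25, a GTPase of apical recycling (-1.69), and CRB3, an apical polarity protein with the most copies on the list (-0.22, not called), are shown as examples with the E-boxes in capitals. They lie on the plus strand of GRCh38.p14 at chr1:202010337-202010586, chr1:156060910-156061159 and chr19:6464021-6464270.
ELF3: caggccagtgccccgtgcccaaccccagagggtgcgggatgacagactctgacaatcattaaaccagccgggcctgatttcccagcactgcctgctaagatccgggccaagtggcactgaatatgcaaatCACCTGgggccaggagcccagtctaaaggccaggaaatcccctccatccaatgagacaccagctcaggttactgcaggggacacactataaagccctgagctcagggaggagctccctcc
RAB25: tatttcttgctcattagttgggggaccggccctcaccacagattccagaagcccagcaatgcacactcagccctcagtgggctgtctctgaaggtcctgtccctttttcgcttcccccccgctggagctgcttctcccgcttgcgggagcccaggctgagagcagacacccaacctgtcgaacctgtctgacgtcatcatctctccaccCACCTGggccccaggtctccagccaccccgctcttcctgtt
CRB3: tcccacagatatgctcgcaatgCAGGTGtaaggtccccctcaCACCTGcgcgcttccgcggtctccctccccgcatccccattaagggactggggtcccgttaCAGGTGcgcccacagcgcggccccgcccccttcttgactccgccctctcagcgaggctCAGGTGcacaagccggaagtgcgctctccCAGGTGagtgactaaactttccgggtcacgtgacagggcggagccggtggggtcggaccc
ELF3 and RAB25 hold 1 copy each and CRB3 holds 5, while its difference was the smallest of the 3. These 3 were chosen among promoters that hold the letters. EHF (-3.17) and GRHL1 (-2.89), the most lowered of the 12, hold 0 copies, as do the lower genes SPINT1 (-1.32) and MARVELD2 (-0.78). Whether copies and differences go together was not tested.

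Adhesion genes differed member by member. Of 25 integrin genes 9 (36%) were higher and 3 (12%) lower in SUM149PT, beside 24.5% and 22.1% of all genes, with a median of 0.10. ITGA3, a laminin receptor subunit, read 8.66, 9.03 and 8.99 in SUM149PT and 6.21, 6.33 and 6.90 in SUM190PT (2.41, SE 0.17). ITGB8 read 7.54, 7.77 and 7.58 in SUM149PT against 4.47, 4.74 and 4.51 in SUM190PT, and the common partner ITGB1 was higher by 1.94. ITGB6, the epithelial subunit that activates TGF-beta, was lower, at 4.16, 4.62 and 4.42 in SUM149PT against 8.13, 8.69 and 9.52 in SUM190PT (-4.38, SE 0.28). The other lower members, ITGA7 (-0.50) and the leukocyte subunit ITGAL (-0.39), differed by less. ITGB6 and ITGB8, which both pair with ITGAV, thus went opposite ways while ITGAV did not pass (0.13).

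Desmosomal and tight junction genes also went apart. Of 14 desmosomal genes 7 were higher and 2 lower. The desmosomal cadherins DSC3 (8.53, 8.59 and 8.69 in SUM149PT against 3.78, 3.88 and 3.84 in SUM190PT) and DSG3 (7.64, 7.97 and 7.40 in SUM149PT against 4.32, 4.04 and 4.30 in SUM190PT) are those of stratified epithelia. DSG2 (2.10) and the plakophilins PKP1 (1.94) and PKP2 (1.52) were higher as well, and desmoplakin DSP was lower (-0.43), a call that was lost without array 3 of SUM190PT (adjusted p = 0.0568 by limma). Of 23 tight junction genes 8 were lower and 2 higher. CLDN1 read 6.50, 6.05 and 7.0 in SUM149PT against 10.88, 10.48 and 9.70 in SUM190PT (-3.83, SE 0.26), and CLDN8 (-2.90), CLDN4 (-2.29), the cingulins CGNL1 (-3.37) and CGN (-1.65) and the scaffold TJP3 (-2.50) were lower, while TJP1 was higher (0.86). CLDN7 (-0.18) did not pass.

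In the CEACAM family of immunoglobulin-like adhesion proteins 6 of 11 were lower and 0 higher by limma. CEACAM6 read 3.61, 3.39 and 4.36 in SUM149PT and 11.15, 11.12 and 11.74 in SUM190PT (-7.55, SE 0.29, adjusted p = 1.25e-15). CEACAM5 read 4.22, 4.35 and 4.40 in SUM149PT against 5.41, 6.02 and 6.87 in SUM190PT (-1.78, SE 0.51), a difference carried by arrays that spread over more than 1 log2 unit in SUM190PT. Members of this family are close in sequence, so probes can share signal.

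Proteases and their inhibitors were more often higher than lower. Of 35 measured, 19 were higher and 5 lower in SUM149PT (median 0.35). Besides PLAT, the urokinase gene PLAU (3.16) and its receptor PLAUR (0.89) were higher. The serpins SERPINB5, known as maspin, at 8.54, 8.29 and 8.55 in SUM149PT against 4.27, 4.07 and 3.68 in SUM190PT, and SERPINE2, at 8.60, 8.50 and 8.35 in SUM149PT against 4.78, 5.05 and 3.98 in SUM190PT, were higher as well. Both activators and inhibitors of plasminogen cleavage thus read higher in the same arrays. The gelatinase MMP2 (2.09) and the inhibitor TIMP1 (3.05) were higher, the collagenases MMP1 (-0.19) and MMP8 (-0.12) did not pass, and the sheddase ADAM10 was lower at 8.78, 8.79 and 8.59 in SUM149PT against 10.42, 10.33 and 10.16 in SUM190PT. The related sheddase ADAM17 was higher (1.22).

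**Figure D3:**
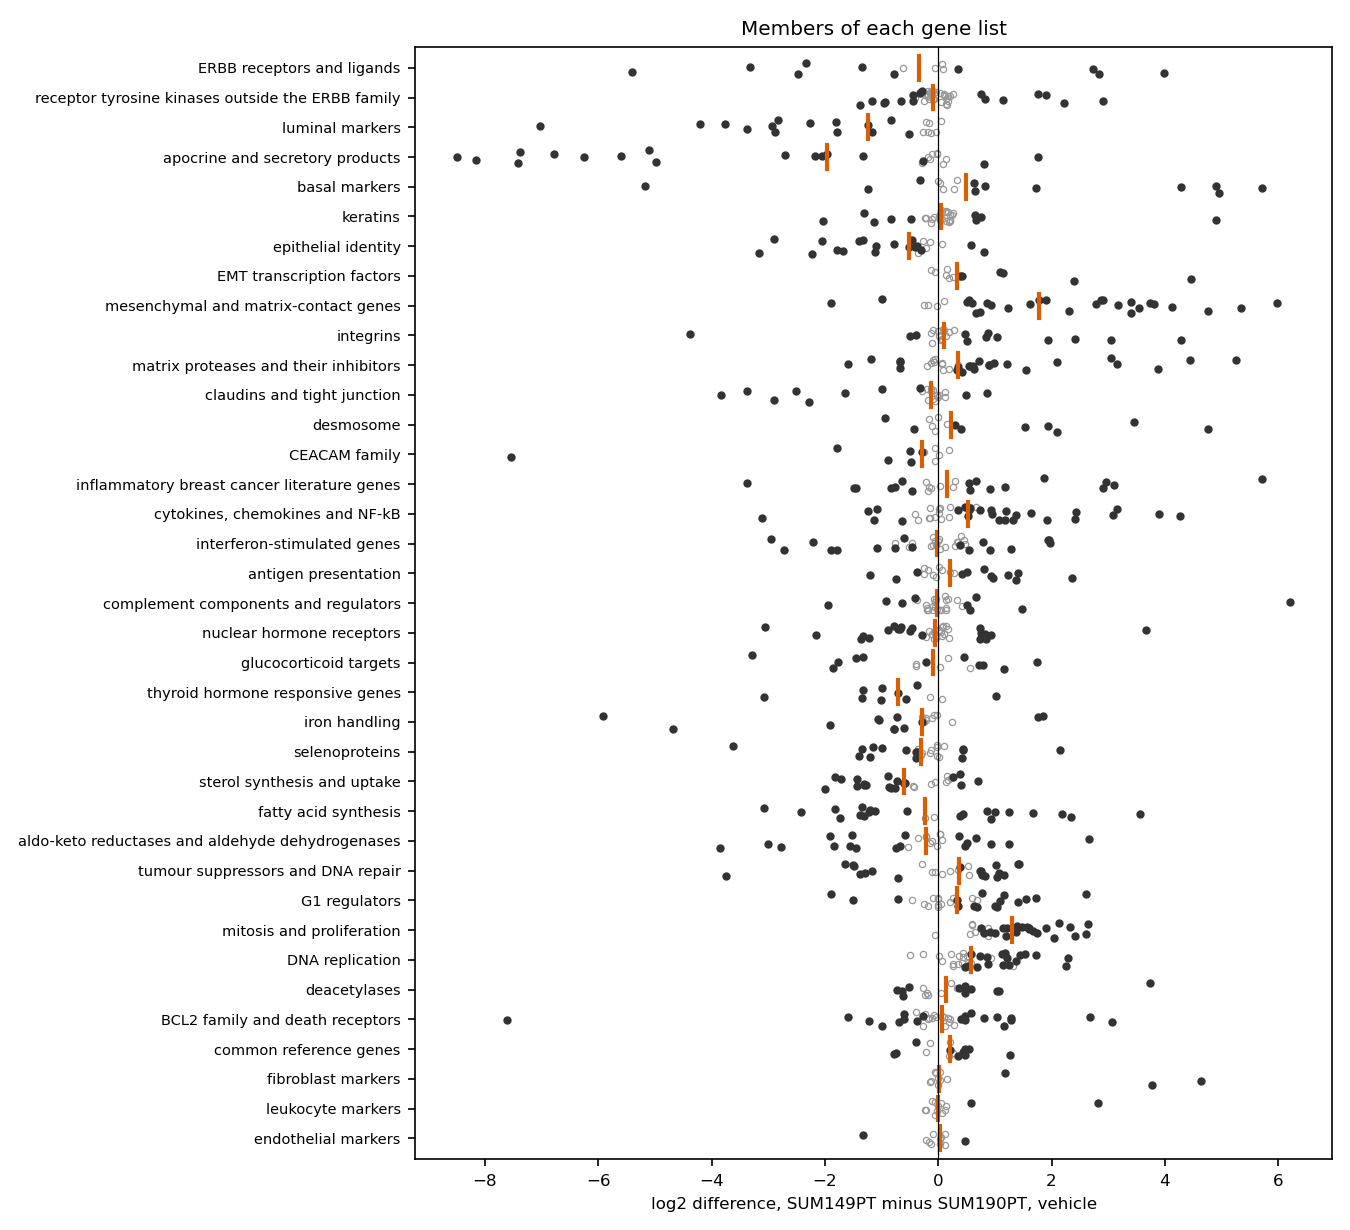
Log2 difference, SUM149PT minus SUM190PT, for each measured member of the gene lists, 1 point per gene with filled points called by limma and open points not called. The orange bar is the list median, which ranges from -1.96 for apocrine and secretory products to 1.77 for mesenchymal genes; most lists hold members on both sides of 0.

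Inflammatory mediators were more often higher in SUM149PT. Of 40 cytokine, chemokine and NF-kB genes 21 were higher and 5 lower (median 0.53). IL1A, interleukin-1 alpha, read 8.08, 7.91 and 7.85 in SUM149PT and 3.64, 3.76 and 3.65 in SUM190PT (4.26, SE 0.11, adjusted p = 1.23e-18). IL1B read 7.57, 7.74 and 7.53 in SUM149PT against 4.26, 4.58 and 4.53 in SUM190PT, and IL18 read 7.66, 7.30 and 7.44 in SUM149PT against 3.85, 3.15 and 3.72 in SUM190PT. The interleukin-1 family members were thus apart in every array. The neutrophil chemokines CXCL1 (3.09), CXCL8 (1.64) and CXCL2 (0.95), the lymphocyte chemokine CCL20 (1.91), the membrane chemokine CXCL16 (2.42), IL32 (2.43) and IL6 (1.18) were higher, as were RELB (0.93), NFKB1 (0.74) and TNFAIP3, an inhibitor of the pathway (1.33). CXCL17, a mucosal chemokine, was lower at 5.22, 5.29 and 5.34 in SUM149PT against 8.96, 8.46 and 7.75 in SUM190PT. CCL2 was lower too, with array 3 of SUM190PT at 4.31, which came close to the SUM149PT range of 3.79 to 4.22. The interferon-induced chemokines CXCL9 (0.04), CXCL10 (-0.41) and CXCL11 (0.02) did not pass.

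Interferon-stimulated genes had no common direction, with 8 higher and 9 lower of 36 and a median of -0.02. OAS1, a sensor of double-stranded RNA, read 5.30, 5.19 and 5.16 in SUM149PT against 7.97, 8.31 and 8.25 in SUM190PT (-2.95, SE 0.30), and the guanylate-binding protein GBP2 (-2.72) and IFI35 (-2.21) were lower. IFIT5, an RNA-binding effector, read 6.26, 6.26 and 6.52 in SUM149PT against 4.36, 4.30 and 4.45 in SUM190PT (1.98), and IFI44L (1.95) and the DNA sensor IFI16 (1.93) were higher. MX1 (-0.03), RSAD2 (-0.09) and IFIT1 (-0.77) did not pass.

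Of 21 antigen presentation genes 9 were higher and 3 lower (median 0.20). PSMB8, a subunit of the immunoproteasome, read 7.62, 7.48 and 7.37 in SUM149PT and 5.34, 5.15 and 4.87 in SUM190PT (2.37, SE 0.12, adjusted p = 1.79e-13). PSMB9 (1.37), the tapasin TAPBP (1.41) and the peptide transporters TAP1 (0.80) and TAP2 (1.24) were higher. B2M, the light chain of class I molecules, was lower at 9.69, 9.68 and 9.58 in SUM149PT against 10.38, 10.06 and 10.73 in SUM190PT (-0.74, SE 0.13). The class II regulator CIITA (-0.04) did not pass, and some class I genes were not analysed here. Apart from C3 (6.21) and its cleaving partner CFB (1.47), the complement list held few called genes, 5 higher and 4 lower of 30 with a median of -0.03, and the chaperone-like CLU was lower (-1.94). The complement shares, 16.7% higher and 13.3% lower, were below the 24.5% and 22.1% of all genes.

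Of 24 genes discussed for inflammatory breast cancer 10 were higher and 7 lower (median 0.15), or 41.7% and 29.2% beside 24.5% and 22.1% of all genes. CAV1, the coat protein of caveolae, read 10.49, 10.30 and 10.44 in SUM149PT and 4.62, 4.69 and 4.76 in SUM190PT (5.72, SE 0.19, adjusted p = 5.69e-17). VEGFC was higher by 2.96 while VEGFA, the factor of blood vessels, was lower at 7.91, 8.0 and 8.01 in SUM149PT against 9.06, 9.04 and 10.25 in SUM190PT (-1.48, SE 0.26). RHOC, a GTPase of cell motility (0.92), and PTGS2, the inducible cyclooxygenase (1.86), were higher. The stem cell enzyme gene ALDH1A1 was lower (-1.45) and ALDH1A3 higher (0.66). EIF4G1 (-0.22) and CCN6 (0.03) did not pass, and neither did the lymphatic markers LYVE1 (-0.17), PDPN (-0.13) and FLT4 (-0.19).

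Genes that answer to the components of the media were examined because the lines stood in different media. Of 11 thyroid hormone responsive genes 8 were lower and 1 higher in SUM149PT, whose medium held no added triiodothyronine (median -0.70). THRSP, a lipogenic regulator, read 4.94, 4.66 and 4.43 in SUM149PT and 8.17, 7.51 and 7.57 in SUM190PT (-3.08, SE 0.17, adjusted p = 4.43e-13). The malic enzyme ME1 (-1.34) and KLF9 (-1.33) were lower, and HR, a corepressor named for its hair phenotype, was higher (1.02). THRSP and ME1 are also counted among the fatty acid genes, KLF9 among the glucocorticoid targets, and DIO1 and DIO2 among the selenoproteins. These lists thus share lower members. The receptor gene THRA (-3.05) and the related THRB (-0.70) were lower, and THRA lies in the run of lower genes around ERBB2. Of 16 glucocorticoid targets, whose inducer was present at 1 µg/mL in both media, 5 were higher and 6 lower. TSC22D3, an anti-inflammatory target, read 6.43, 6.70 and 6.37 in SUM149PT against 9.52, 9.30 and 10.55 in SUM190PT (-3.29), and DUSP1 (-1.76) and the metallothionein MT1X (-1.86) were lower, while ANGPTL4 (1.74) and PER1 (1.16) were higher. The receptor gene NR3C1 was higher (0.75).

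Of 20 genes of iron handling 10 were lower and 2 higher (median -0.29). SLC40A1, the iron exporter ferroportin, read 4.28, 4.45 and 4.20 in SUM149PT and 10.61, 9.87 and 10.19 in SUM190PT (-5.91, SE 0.19, adjusted p = 6.26e-17). CP, the copper oxidase ceruloplasmin that loads iron onto transferrin, read 3.10, 3.33 and 3.14 in SUM149PT against 7.82, 8.48 and 7.31 in SUM190PT, and the metalloreductase STEAP2 was lower (-1.92). FTL, the ferritin light chain, was higher at 9.36, 9.38 and 9.27 in SUM149PT against 7.67, 7.42 and 7.41 in SUM190PT. The exporter and the storage gene thus differed in opposite directions. The transferrin receptor TFRC read 10.70, 10.71 and 10.75 in SUM149PT against 11.90, 11.80 and 10.80 in SUM190PT, so that array 3 of SUM190PT lay near the SUM149PT arrays (-0.78, SE 0.29).

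Of 24 selenoprotein genes 10 were lower and 4 higher (median -0.30), with selenite added to the SUM190PT medium alone. SELENOP, the selenium carrier, read 2.80, 3.12 and 3.03 in SUM149PT and 7.30, 6.72 and 5.79 in SUM190PT (-3.62, SE 0.24). MSRB1 (-1.40), SELENOH (-1.15) and SELENOW (-0.99) were lower, whereas GPX1, a glutathione peroxidase, was higher (2.15) by its brightest probe set and close to 0 (0.06) by another. GPX4 (-0.13) and TXNRD1 (-0.03) did not pass.

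Of 28 genes of sterol synthesis and uptake 16 were lower and 4 higher in SUM149PT, the line kept with serum (median -0.60). The synthase HMGCS1 read 7.45, 7.44 and 7.12 in SUM149PT and 9.43, 9.20 and 8.51 in SUM190PT (-1.71, SE 0.21), and the regulator SREBF2 read 7.55, 7.57 and 7.46 in SUM149PT against 9.15, 9.23 and 9.68 in SUM190PT. TM7SF2 (-1.99), MVK (-1.32) and FDPS (-1.27) were lower, and ACAT2 (0.70) and IDI1 (0.40) higher. Without array 3 of SUM190PT 16 were lower and 1 higher, and neither ACAT2 (0.36, adjusted p = 0.283 by limma) nor IDI1 (0.32, adjusted p = 0.0916 by limma) was called. Of 23 fatty acid genes 11 were lower and 10 higher, a share called well above the 46.7% of all genes but with no common direction. FASN, the fatty acid synthase, read 9.40, 9.42 and 9.32 in SUM149PT against 11.84, 11.93 and 11.65 in SUM190PT (-2.43, SE 0.22), and the desaturases FADS2 (-1.82) and SCD (-1.31) were lower. The elongases ELOVL4 (2.34) and ELOVL6 (2.18) and ACSL4, which activates arachidonic acid, at 8.12, 8.29 and 8.20 in SUM149PT against 4.95, 4.64 and 4.36 in SUM190PT, were higher, as was FADS1 (1.68).

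Enzymes of aldehyde and steroid metabolism were lower more often than higher, 11 against 7 of 28 (median -0.21). The higher share, 25%, was close to the 24.5% of all genes, and the lower share was 39.3% beside 22.1%. ALDH3A1 read 6.17, 6.13 and 6.20 in SUM149PT and 10.36, 9.72 and 9.98 in SUM190PT (-3.85, SE 0.29). AKR1C2 read 7.10, 7.02 and 6.81 in SUM149PT against 10.60, 10.36 and 8.99 in SUM190PT, and AKR1C1, whose 2 probe sets gave -2.78 and -0.32, is so similar to it in sequence that their signals can mix. ALDH2, the mitochondrial enzyme that clears acetaldehyde, was higher at 7.78, 7.75 and 7.54 in SUM149PT against 4.85, 4.99 and 5.23 in SUM190PT (2.67, SE 0.18).

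Of the 36 measured nuclear hormone receptors 7 were higher and 13 lower (median -0.06). PPARG, the receptor of fat cell differentiation, read 7.91, 8.23 and 8.20 in SUM149PT and 4.36, 4.59 and 4.38 in SUM190PT (3.67, SE 0.17, adjusted p = 3.23e-14). It was the only member of the list higher by more than 1. The orphan receptors NR4A2 (-2.16) and NR4A1 (-1.22), the mineralocorticoid receptor NR3C2 (-1.32) and the vitamin D receptor VDR (-0.66) were lower, and ESR2 (0.06), ESRRA (0.01) and PPARA (0.20) did not pass.

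Genes of mitosis were mostly higher in SUM149PT, and array 3 of SUM190PT stood apart from the other SUM190PT arrays in these genes. Of 30 mitotic genes 22 were higher and 0 lower by limma (median 1.29). The list median by array was 9.40, 9.58 and 9.60 in SUM149PT and 8.77, 8.45 and 7.50 in SUM190PT, so array 3 of SUM190PT was lowest. AURKA, the mitotic kinase, read 10.58, 10.34 and 10.25 in SUM149PT against 8.56, 7.71 and 7.09 in SUM190PT (2.60, SE 0.31, adjusted p = 1.94e-07), and NDC80, a kinetochore protein, read 8.42, 8.35 and 8.33 in SUM149PT against 6.26, 5.91 and 5.01 in SUM190PT. Without that array 16 of the 30 were still called higher and 0 lower, with a median of 0.87. Over all 18417 genes 4224 were higher and 3750 lower in that setting. The proliferation marker MKI67 (0.88) and the kinase PLK1 (0.60) did not pass with all arrays.

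DNA replication genes followed the same array. Of 35 measured, 18 were higher and 0 lower by limma (median 0.58). Without array 3 of SUM190PT 10 (28.6%) were higher and 2 lower (median 0.36), beside 4224 higher and 3750 lower of all 18417 genes. The list median by array was 8.93, 9.04 and 8.93 in SUM149PT and 8.90, 8.86 and 7.24 in SUM190PT. PCNA, the sliding clamp of the replication fork, read 10.88, 10.79 and 10.81 in SUM149PT against 9.97, 9.66 and 8.27 in SUM190PT (1.53, SE 0.34), and TYMS, which makes thymidylate, read 10.46, 10.49 and 10.53 in SUM149PT against 9.29, 8.88 and 6.42 in SUM190PT. MCM5, part of the replicative helicase, read 8.93, 9.04 and 8.93 in SUM149PT against 9.62, 9.62 and 7.62 in SUM190PT and did not pass (0.01). PCNA and TYMS were higher in SUM149PT than in any SUM190PT array, whereas for MCM5 the first 2 SUM190PT arrays were above and array 3 below the SUM149PT arrays. The part of this array in the list's difference is given by the counts above, and the cause of its low readings was not tested.

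Regulators of entry into the cycle were divided, with 13 higher and 3 lower of 29 (median 0.33), or 10 higher and 4 lower without array 3 of SUM190PT. CDK6, the partner of D-type cyclins, read 8.43, 8.91 and 8.96 in SUM149PT against 6.27, 6.26 and 5.93 in SUM190PT (2.61, SE 0.21, adjusted p = 3.26e-10), whereas CDK4 did not pass (0.21). CCND1 and the inhibitors CDKN2A (-1.50) and CDKN2B (-0.71) were the 3 lower members. MYC was higher (1.55), as were RB1 (1.15), its relative RBL1 (1.73) and the cyclin E gene CCNE1 (1.08).

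**Figure D4:**
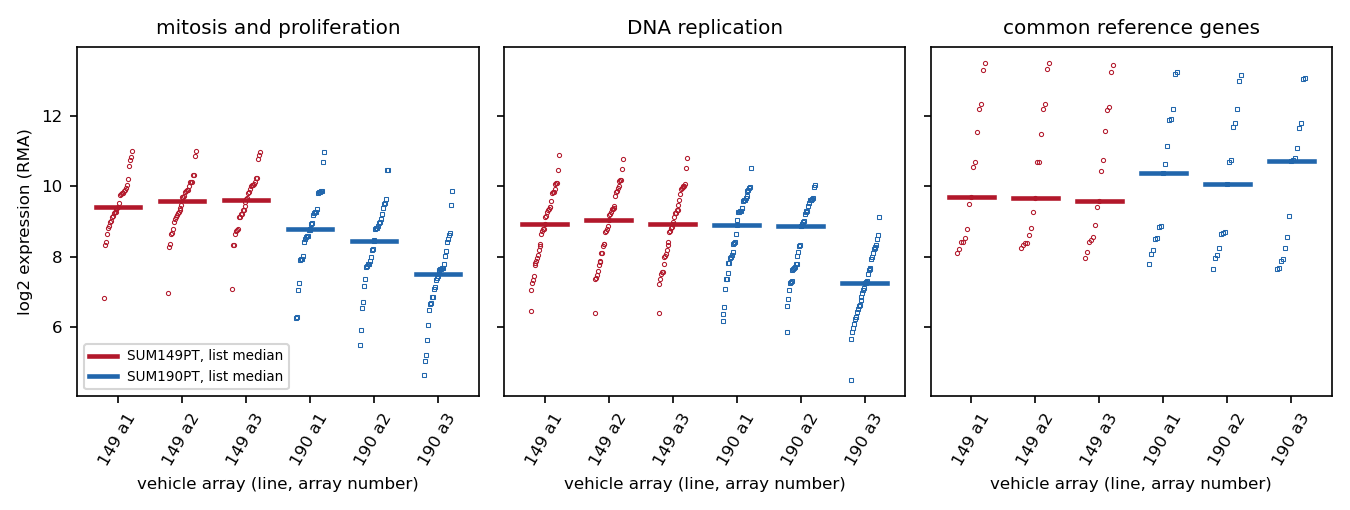
Log2 expression of each list member in each vehicle array for mitotic genes, DNA replication genes and common reference genes, 1 point per gene with bars at the list medians, SUM149PT arrays left of SUM190PT arrays. The mitotic median of array 3 of SUM190PT was 7.50 and its replication median 7.24, the lowest of the 6 arrays in both lists.

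Among 28 tumour suppressor and DNA repair genes 12 were higher and 8 lower (median 0.36), and without array 3 of SUM190PT 10 and 8 (median 0.12). BRCA1, which directs repair of double-strand breaks, read 6.18, 6.69 and 6.36 in SUM149PT against 10.79, 10.57 and 9.09 in SUM190PT (-3.74, SE 0.38, adjusted p = 1.57e-08). It was lower in every SUM149PT array, and array 3 of SUM190PT read below the other SUM190PT arrays here too. STK11, an upstream kinase of AMPK (-1.64), MAP3K1 (-1.49) and NF1, a brake on RAS (-1.38), were lower. SMAD4, the common mediator of TGF-beta signals, was higher (1.43), as were the checkpoint kinases CHEK1 (1.41) and CHEK2 (0.78). PALB2 (-0.06) and BARD1 (0.54), partners of the BRCA proteins, did not pass.

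Histone deacetylases, the targets of CG-1521, were examined in the absence of the drug. Of 18 deacetylases and sirtuins 7 were higher and 4 lower (median 0.14). HDAC1 read 10.98, 11.12 and 11.13 in SUM149PT against 7.65, 7.55 and 6.81 in SUM190PT (3.74, SE 0.19, adjusted p = 1.22e-13), and the lines did not overlap. Its close relative HDAC2 was higher by a smaller amount (1.04), HDAC8 (-0.64) and HDAC5 (-0.52) were lower, and HDAC3 (0.05) and HDAC6 (0.22) did not pass. HDAC1 and HDAC2 are similar in sequence, so their probes can share signal.

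Genes of cell death were higher or lower member by member, 11 and 9 of 35 (median 0.07). Their shares were 31.4% and 25.7%, beside 24.5% and 22.1% of all genes. TNFSF10, the death ligand TRAIL, read 3.71, 4.23 and 3.67 in SUM149PT against 11.54, 11.25 and 11.67 in SUM190PT (-7.61, SE 0.25), and its receptors TNFRSF10A (1.29) and TNFRSF10B (1.04) were higher. The ligand was thus lower and both death-signalling receptors higher in SUM149PT. Among the BCL2 family, the killer PMAIP1 read 7.25, 7.50 and 7.60 in SUM149PT against 4.42, 4.32 and 4.42 in SUM190PT (3.07), BCL2L11 (-1.60) and the survival genes BCL2L1 (-0.69) and MCL1 (-0.60) were lower, and BCL2 (-0.05) did not pass. CFLAR, which blocks caspase-8, was lower (-1.22), with its other probe set at -2.29.

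Most markers of other cell types read below the median of all genes in both lines, and some read well above it. The 5 epithelial markers averaged 10.2 to 11.9 in SUM149PT and 10.6 to 12.5 in SUM190PT. Of 13 leukocyte markers 12 read below the median of all genes in each line, and the common leukocyte antigen gene PTPRC did not pass (0.15). Of 11 endothelial markers 10 in SUM149PT and 11 in SUM190PT were below that median, as were 9 and 11 of 12 fibroblast markers. Above it lay CD68, at 9.75 on average in SUM149PT and 6.92 in SUM190PT, and COL6A3 (8.22) and FAP (8.09) in SUM149PT. COL1A1 (7.08) lay above it in SUM190PT, and the endothelial marker ROBO4 (6.31) in SUM149PT. The fibroblast markers FAP, a surface protease (4.63), COL6A3 (3.77) and DCN (1.19) and the leukocyte markers CD68 (2.82) and CD14 (0.57) were higher in SUM149PT, while COL1A1 (-0.05), COL1A2 (-0.06) and COL3A1 (-0.01) did not pass. PECAM1 was lower (-1.32) by its brightest probe set, with another at 0.004. Of 15 genes often used as references 7 were higher and 3 lower (median 0.21), with HPRT1, of purine salvage, at 1.26, GAPDH at 0.34 and ACTB, which did not pass, at 0.21.

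The same lines and media were also measured after 10 nM estradiol, on 6 arrays other than those that gave the vehicle differences. The calls in both sets used the same spread per gene, estimated over all 24 arrays. Agreement between the calls is therefore not that of 2 independent tests. There 10065 genes (54.7%) were called, 5718 (31%) higher and 4347 (23.6%) lower in SUM149PT. Of the 8592 genes called in vehicle arrays 8152 (94.9%) had the same direction and 7033 (81.9%) were called the same way, while 49 were called the opposite way. Of the 3018 genes called at 2-fold or more, 2973 (98.5%) were called the same way and 0 the opposite way, and so were all 30 genes with the largest differences. ERBB2 differed by -5.82 in estradiol arrays, BRCA1 by -4.13, HDAC1 by 3.24 and AURKA by 2.01. Counts of some lists were not alike in the 2 sets. In estradiol arrays 3 CEACAM genes were higher and 4 lower, 10 of the 12 factors of the epithelial-mesenchymal transition were higher, 18 cell death genes were higher and 9 lower, and 7 tumour suppressor and DNA repair genes were higher and 11 lower. Whether these counts differed beyond chance between vehicle and estradiol was not tested. The differences in the 2 sets of arrays correlated at 0.944 across genes, which are not independent replicates.

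**Figure D5:**
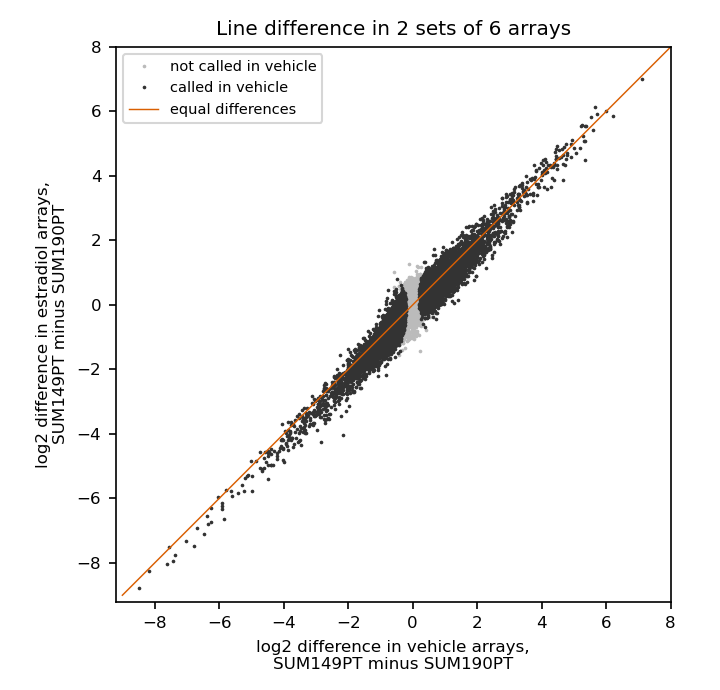
Line difference of each gene, SUM149PT minus SUM190PT on the log2 scale, in vehicle arrays on one axis and estradiol arrays on the other, with the line of equality. The points lie along that line, with a correlation of 0.944 across 18417 genes.

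The line difference itself differed between vehicle and estradiol arrays for 321 genes (1.74%) by limma, 152 (0.825%) with a more positive and 169 (0.918%) with a more negative difference in vehicle arrays, and 4039 genes had an unadjusted p under 0.05. This count rested on single arrays. It was 0 without array 2 of the SUM190PT vehicle group (2926 with an unadjusted p under 0.05) and 2239 without array 1 of that group. It was 7, 1 and 103 without arrays 1, 2 and 3 of the SUM149PT vehicle group, and 3 without array 3 of the SUM190PT vehicle group.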

How the data were processed

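RNA was isolated on RNeasy columns, checked on a Bioanalyzer, amplified with a NuGEN pico kit and labelled with biotin, per the labels' protocols. The deposited values are log2 intensities that the authors computed with RMA in Affymetrix Expression Console, per the submitters' processing notes. The versions, and whether both lines were normalized together, are not given in the sources used here.

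The table held 33297 probe sets on 24 arrays, of which 19460 carried 1 gene symbol, 1754 several and 12083 no entry. The brightest probe set of a gene stood for it, which left 18417 genes, 769 of them with several probe sets. Genes were named through the platform annotation and RefSeq, to which 19429 probe sets matched, and some genes of the lists are not analysed here. limma 3.58.1 in R 4.3.3 fitted 8 group means over 24 arrays, each line with each treatment, with Benjamini-Hochberg adjustment over all genes and a threshold of 0.05. Tested on simulated data with 50 genes changed at each size among 18417, it recovered 94% of genes lowered by 1, 98% raised by 1, 100% raised by 2 and 58% raised by 0.5 on the log2 scale. The simulation gave all groups the same spread and changed far fewer genes than the 46.7% called between the lines. These rates therefore need not hold for the comparison of the lines.

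The 40 gene lists, and the vehicle comparison itself, were chosen with earlier results of these data known. Genes named in the text are the 15 with the largest difference each way among those called with lines that do not overlap, the 3 largest each way per list, a fixed set of breast cancer genes such as BRCA1 and CDH1, members of the gene-order windows, and the 4 largest each way of the difference between vehicle and estradiol arrays. Other list members given as examples were chosen after their values were seen. Windows held 11 genes in RefSeq gene order and were not tested. The main fit did not pair arrays of the 2 lines by replicate number. The correlations of their deviations were -0.10, -0.14 and -0.04 in vehicle arrays and 0.05, 0.11 and -0.007 in estradiol arrays. Correlations between different lines cannot show whether arrays of the same number were handled together. The labels name 3 independent experiments per group. The p-values and standard errors used a spread per gene estimated over all 24 arrays, drug-treated groups included. They can therefore differ from what the spread of the vehicle arrays alone would give. The fit also gave both lines the same spread for a gene. In vehicle arrays the median SD over genes was 0.103 in SUM149PT and 0.169 in SUM190PT. The alternatives, 15 in all, covered the probe set rule, normalization, array weights, dim genes, the experiment number as a block and each vehicle array left out. They also covered limma's robust estimate of the spread with a trend, and a fit to the vehicle arrays alone, which used only the spread of those arrays. No call of a named gene reversed under any of these alternatives.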

Additional observations from a re-analysis of the deposited data

Results flagged for a closer look

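For 10 of the named genes the line difference, SUM149PT minus SUM190PT on the log2 scale, was not the same in vehicle as in estradiol arrays by limma's test of the difference between them. AGR3, a luminal secretory gene, differed by -2.83 between the lines in vehicle arrays and by -4.26 in estradiol arrays, a change of 1.43 (SE 0.35, adjusted p = 0.0427). The changes, vehicle minus estradiol, were also positive for UGT2B7, a glucuronidating enzyme (1.33), POF1B (1.22), ZNF845 (1.15) and ZNF280D (0.85). They were negative for IFNL2, an interferon lambda gene (-1.28), POU5F1P3 (-1.21), BBC3, a killer of the BCL2 family (-1.12), SORBS3, an adhesion adaptor (-1.08), and WT1-AS (-0.86). BBC3 differed by -0.39 in vehicle and by 0.73 in estradiol arrays. The naming rule took the 4 largest changes each way from genes already called in this same test. The calls of those genes were thus fixed by the choice, and only ZNF280D and WT1-AS were named by another rule, as members of gene-order windows. Among all genes 321 had such a change, 0 did without array 2 of the SUM190PT vehicle group and 2 did after quantile normalization.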

How the results depend on the processing

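No gene call reversed, whereas 10 list medians near 0 changed sign under at least 1 alternative, those of cell death, complement, keratins, nuclear receptors, glucocorticoid targets, interferon-stimulated genes, the ERBB2 neighbourhood and the endothelial, fibroblast and leukocyte markers. Of 4541 values for the 309 named genes under 15 alternatives, 4449 kept their call, 79 lost it, 13 gained it and 0 reversed, and the calls of the 30 genes with the largest differences held in each alternative run. With the experiment number as a block (replicate block) 8709 genes were called, 4573 higher and 4136 lower in SUM149PT, and no call of a summary result changed. The cause of the changes below was not tested.

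Widening the gene-order windows to 21 genes gave medians of 0.37, 0.28, 0.84 and 0.88 for the higher and -0.31, -0.65, -0.82 and -0.10 for the lower windows. Array weights gave medians of -0.13 for ERBB receptors and ligands and -1.51 for apocrine products, and 2621 genes with a line difference that changed between vehicle and estradiol. Quantile normalization gave medians of 0.055 for complement, 0.27 for desmosome, 0.14 for endothelial markers, 0.16 for keratins, 0.030 for nuclear receptors and -0.68 for sterol genes, 26.7% of complement genes higher, and 2 genes with such a change.

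Leaving out the genes below the median level, which by construction removes dim members, gave 6662 called genes in estradiol arrays. It left 1 CEACAM gene (CEACAM6), 1 leukocyte marker (CD68), 1 fibroblast marker (COL1A1) and 0 endothelial markers, so the values of the first 3 of these lists are each those of a single gene. The medians became 0.19 for cell death genes, -7.55 for the CEACAM family, -0.83 for the ERBB2 neighbourhood, -0.63 for aldo-keto reductases and aldehyde dehydrogenases, 0.95 for antigen presentation, -6.26 for apocrine products, 0.046 for complement, 0.74 for cytokines, 0.048 for deacetylases, 0.36 for desmosome, -0.78 for epithelial identity, -1.11 for fatty acid genes and -0.31 for glucocorticoid targets. They became 0.57 for genes discussed for inflammatory breast cancer, 0.96 for integrins, -0.52 for interferon-stimulated genes, -0.73 for iron handling, -0.22 for keratins, 2.82 for leukocyte markers, -2.88 for luminal markers, 0.89 for matrix proteases, 2.30 for mesenchymal genes, -0.47 for nuclear receptors, -0.13 for selenoproteins, -0.72 for sterol genes and -0.99 for thyroid hormone responsive genes. The share called lower became 100% for the 1 CEACAM gene, 60% of 20 genes in the ERBB2 neighbourhood, 61.1% of 18 aldo-keto reductases and aldehyde dehydrogenases, 46.2% of 13 interferon-stimulated genes, 55.6% of 9 keratins and 36.4% of 11 receptor tyrosine kinases. The share called higher became 80.0% of 10 antigen presentation genes, 70.0% of 10 integrins, 0% for the 1 fibroblast marker and 100% for the 1 leukocyte marker.

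Without array 3 of SUM190PT in vehicle and estradiol, the medians were 0.11 for cell death genes, -0.048 for ERBB receptors and ligands, -1.36 for apocrine products, -0.41 for epithelial identity, 0.062 for glucocorticoid targets, -1.14 for luminal markers and -0.70 for sterol genes. The windows were 1.27, 1.86 and 1.15 for the histone cluster, chromosome 4 and chromosome 2 and -2.60 for chromosome 22, and 2 genes had a line difference that changed with estradiol.

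With each vehicle array left out in turn, the median ranged from -0.0062 to 0.11 for cell death genes, -0.40 to -0.048 for ERBB receptors and ligands, -2.15 to -1.36 for apocrine products, -0.25 to -0.092 for tight junctions, -0.048 to 0.037 for complement, -0.60 to -0.41 for epithelial identity, -0.14 to 0.062 for glucocorticoid targets, -1.41 to -1.14 for luminal markers, -0.073 to -0.0045 for nuclear receptors, -0.34 to -0.17 for selenoproteins and -0.70 to -0.53 for sterol genes. The share higher ranged from 28.6% to 60% for DNA replication, lowest without array 3 of SUM190PT, and from 0% to 9.09% for endothelial markers. The windows ranged from 1.27 to 2.00 in the histone cluster, 1.53 to 1.86 on chromosome 4, 1.15 to 1.72 on chromosome 2 and -2.60 to -2.34 on chromosome 22. The number of genes with a line difference that changed with estradiol ranged from 0 to 2239. The signal over background of dim probe sets limits what can be seen of genes that read near the bottom of the scale.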
